A study of Mus musculus with 12 samples.

Results

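The 35 genes described here encode subunits and partners of the complexes that remodel or silence chromatin, and they were followed in naive CD8 T cells at rest and during the day after stimulation. They were taken by symbol from a table of 12885 gene symbols, by a list that covers the NuRD complex (13 genes), the SWI/SNF complexes (12 genes), Polycomb repressive complex 2 (PRC2, 4 genes), the CtBP corepressor (1 gene), the SIN3 scaffolds (2 genes) and DNA methylation genes (3 genes). All 35 symbols were present and all 35 were among the 12726 genes tested. The list used no measured value, although it was drawn up with earlier results of these data known.

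RNA was sequenced from 12 libraries in 6 groups of 2. The cells were naive CD8+ T cells, CD62L high and CD44 low or negative, sorted from spleens of wild-type (WT) mice or of homozygous Ikaros-Zn4-/- mice (Zn4), all of the C57Bl/6 background, 6 weeks old and labelled female. Each genotype was sampled directly (0 h) and after 12 h and 24 h on plate-bound antibodies against CD3 and CD28, the T cell receptor complex and its costimulatory receptor. The groups are therefore WT and Zn4 cells that were unstimulated, stimulated for 12 h and stimulated for 24 h, and no group carries a further allele or agent per the labels. The labels name the mutation only as Zn4, and they do not say whether the replicates came from separate mice, so p-values measure the spread between these samples, which may be technical. At 12 h the replicates of each genotype differed in sex-linked RNA (values below), so at that time they did not hold the same mix of mice.

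Ikaros, the zinc finger factor encoded by Ikzf1, is known in lymphocytes as a partner of the NuRD complex, which joins a nucleosome-moving ATPase (Chd3 or Chd4) to histone deacetylases (Hdac1, Hdac2) through adaptor subunits, and it also binds CtBP, SIN3 and SWI/SNF proteins. SWI/SNF complexes use the ATPase Smarca4 (BRG1) or Smarca2 (BRM) to slide or evict nucleosomes, PRC2 uses Ezh2 or Ezh1 to methylate lysine 27 of histone H3, and Uhrf1 brings Dnmt1 to freshly copied DNA so that methylation is passed on. Many of these subunits exist as paralogs that take the same place in a complex, so the RNA level of each paralog and its share within the pair are both given below. Levels are in RPKM (reads per kilobase of gene, scaled to the reads of the library), so a comparison between genes depends on the gene length used. For some members the length recovered from the deposited values was shorter than the annotated exons (GENCODE M21). It was 1906 bp against 11443 bp for Gatad2b and 7854 bp against 14269 bp for Smarca2.

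The libraries held 24263907 to 33389808 reads, of which 73.8% to 86.1% fell in listed genes, and a count of 3 reads is worth 0.0449 to 0.0618 RPKM for a gene 2 kb long. Members were well covered, with 105 (Uhrf1 at rest) to 44532 (Chd4) reads per library. Libraries of the same group correlated at 0.9804 to 0.995 across genes on the log2(RPKM + 1) scale. The 4 markers of CD8 T cells (Cd3e, Cd3d, Cd8a and Cd8b1) summed to 589 to 978 RPKM in every library, with 589 to 704 RPKM in stimulated Zn4 cells and 832 to 978 RPKM in the other groups, while Cd4 did not exceed 2.09 RPKM. Of the 4 B cell markers only Cd79b is in the table, at 6.53 to 6.62 RPKM in WT cells at 24 h and 0.298 to 2.32 RPKM in the other groups, and of the 4 myeloid markers only Itgam is, at 1.16 RPKM or less. The 2 natural killer and 3 erythroid markers are not in the table, which holds only genes whose highest group mean is at least 1.0005 RPKM. The part of these markers in the results was not tested, and in bulk RNA fewer cells of a type and less RNA per cell cannot be told apart.

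Some facts about the libraries bear on the comparisons. At 12 h, 3 of the 4 libraries went against their female label: the sum of 4 Y-linked genes was 38.9 RPKM in WT replicate 1, 43.5 RPKM in Zn4 replicate 1 and 21.0 RPKM in Zn4 replicate 2, and no more than 0.0209 RPKM elsewhere. Xist, the RNA of the inactive X chromosome, stood at 0.00230, 0.0258 and 24.3 RPKM in these libraries, in the same order, and the remaining 9 held 27.2 to 82.7 RPKM. Leaving out WT replicate 1 and Zn4 replicate 1 of 12 h left 1 library per genotype at that time and ended 24 of the calls on members that are counted below. At 0 h the replicates stood apart in both genotypes for some members (Chd4 at 51.0 and 93.6 RPKM in WT cells, and at 57.2 and 97.8 RPKM in Zn4 cells). Ikzf1 itself was abundant in all 12 libraries (90.9 to 139 RPKM), and a value per gene cannot show the mutated part, so it does not check the genotype.

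Of the members that kept climbing between 12 h and 24 h, 4 are printed here, each with only the promoter window that holds words of the E2F motif. That motif is the site of the factors that drive genes at entry into S phase. The 4 were chosen after their values were seen. Windows of 300 bases (250 before to 50 after an annotated start, RefSeq, GRCm38.p6) were used for 29 of the 35 members. The words searched on both strands were TTTCCCGC, TTTCGCGC, TTTGCCGC and TTTGGCGC, and a word on one strand can overlap a word on the other. At least 1 of these words lay in 6 members (20.69%: Arid1a, Dnmt1, Ezh2, Smarcd1, Suz12 and Uhrf1), in 2.6% of all 27025 genes and in 2.26% of all 32851 promoters. The reference genes and promoters were not limited to genes of the expression table or matched for base composition, so these shares are not from like sets. Further windows of Uhrf1 (chr17:56303087-56303386) and of Dnmt1 (chr9:20952930-20953229 and chr9:20959839-20960138) hold none of these words and are not printed. In the sequences below, written 5′ to 3′ along the gene's strand, capitals mark these words or their reverse complement.
Uhrf1, chr17:56304063-56304362, + strand: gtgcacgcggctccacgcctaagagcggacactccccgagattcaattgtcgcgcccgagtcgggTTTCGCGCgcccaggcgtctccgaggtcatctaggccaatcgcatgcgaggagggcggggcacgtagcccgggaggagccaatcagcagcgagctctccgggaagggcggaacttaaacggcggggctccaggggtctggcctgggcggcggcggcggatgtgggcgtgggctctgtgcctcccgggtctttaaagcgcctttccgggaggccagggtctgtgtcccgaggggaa
Dnmt1, chr9:20952574-20952873, − strand: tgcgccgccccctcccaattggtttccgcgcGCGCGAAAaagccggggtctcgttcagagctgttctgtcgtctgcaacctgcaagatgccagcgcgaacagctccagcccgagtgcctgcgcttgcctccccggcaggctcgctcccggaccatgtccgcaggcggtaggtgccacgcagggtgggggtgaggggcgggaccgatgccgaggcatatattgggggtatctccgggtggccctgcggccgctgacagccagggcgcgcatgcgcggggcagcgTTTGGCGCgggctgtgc
Ezh2, chr6:47594981-47595280, − strand: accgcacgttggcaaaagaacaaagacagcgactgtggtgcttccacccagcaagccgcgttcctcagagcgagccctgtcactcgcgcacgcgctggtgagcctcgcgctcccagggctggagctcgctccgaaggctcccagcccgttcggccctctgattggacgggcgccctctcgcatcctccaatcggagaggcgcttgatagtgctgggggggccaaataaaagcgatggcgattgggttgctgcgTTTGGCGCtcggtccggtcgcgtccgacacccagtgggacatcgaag
Suz12, chr11:79992856-79993155, + strand: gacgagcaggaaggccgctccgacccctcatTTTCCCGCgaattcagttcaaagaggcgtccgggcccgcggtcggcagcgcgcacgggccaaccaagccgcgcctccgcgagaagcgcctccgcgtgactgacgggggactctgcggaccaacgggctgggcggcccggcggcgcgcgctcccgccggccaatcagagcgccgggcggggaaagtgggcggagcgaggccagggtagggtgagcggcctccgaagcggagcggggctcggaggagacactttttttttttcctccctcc
Uhrf1, Dnmt1, Ezh2 and Suz12 were called higher at 24 h than at 12 h in WT cells, whereas Arid1a and Smarcd1, which also hold a word, were not. In Zn4 cells this step of Suz12 was not called. Eed, Rbbp4, Smarca2 and Arid1b were also called higher at this step and hold no word in the windows used. Chd3 and Hdac1 were called higher in WT cells too, but no window was available for them. Because the printed members were chosen for their rise and their words, these calls cannot test a link between word and rise. The core word TGGGAA of the Ikaros motif lay in 4 members (13.79%: Dnmt1, Dnmt3a, Gatad2a and Rbbp7), in 28.31% of all genes and in 25.56% of all promoters. A word in a window is a description and shows no binding, and each promoter was read only in its annotated windows.

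Most members were called changed after stimulation, as were most genes of the table, so the counts show nothing particular to the members. Within some pairs of paralogs one gene rose and the other fell. Within WT cells 20 members rose and 7 fell by 12 h, and 21 were higher and 6 lower at 24 h than at rest. In Zn4 cells 18 rose and 6 fell by 12 h, and 21 were higher and 5 lower at 24 h. All 18 members called higher and all 6 called lower in Zn4 cells at 12 h were also called in WT cells, and 20 members were higher and 5 lower at 24 h in both genotypes. Changes are differences of log2(RPKM + 1) with the standard error of a limma model over all 12 libraries, and a gene was called where its p-value, adjusted by Benjamini-Hochberg over all 12726 genes, was under 0.05.

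Most genes of the table moved too. In WT cells at 12 h, 43.1% of all tested genes were called higher and 27% lower, and at 24 h against rest 48.3% and 25.6%. In Zn4 cells the shares were 43.5% and 29.6% at 12 h and 48.7% and 26% at 24 h. The median change over the members was 0.44 at 12 h and 0.64 at 24 h in WT cells, against 0.20 and 0.31 over all tested genes. In Zn4 cells it was 0.33 and 0.61, against 0.19 and 0.31.

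The upward shift of the median gene depends on the scaling, so small rises need care. With libraries scaled by median ratios the median change over all genes was −0.03 at 12 h and −0.01 at 24 h in WT cells, and the split of calls moved from 5488 higher and 3440 lower to 4349 and 4554 at 12 h, and from 6153 and 3256 to 4674 and 4668 at 24 h. In Zn4 cells it moved from 5533 and 3763 to 4515 and 4735 at 12 h, and from 6194 and 3315 to 4732 and 4719 at 24 h. Among the members the split then became 16 higher and 8 lower at 12 h and 16 higher and 11 lower at 24 h, in either genotype. In Zn4 cells the calls of Ctbp1 and Smarcc2 at 12 h and of Chd4, Ctbp1, Hdac1, Sin3b and Smarcc2 at 24 h were lost. The WT calls lost were those of Arid1a, Ctbp1, Hdac1 and Smarcc2 at 12 h and of Chd4, Ctbp1, Eed, Sin3a and Smarcc2 at 24 h. Then called lower in WT cells were Eed at 12 h (−0.345) and Arid1a, Arid2, Gatad2b, Smarcd1 and Smarce1 at 24 h (log2 changes of −0.52 to −0.35). In Zn4 cells these were Gatad2b and Smarcd2 at 12 h (−0.392 to −0.255) and Arid1a, Arid2, Mbd2, Smarcd1, Smarcd2 and Smarce1 at 24 h (−0.41 to −0.23). Of the called changes across times, those of Arid1a and Hdac1 in WT cells at 12 h and of Ctbp1 in Zn4 cells at 24 h changed sign under median-ratio scaling or quantile normalization, and the others kept their direction.

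**Figure D1:**
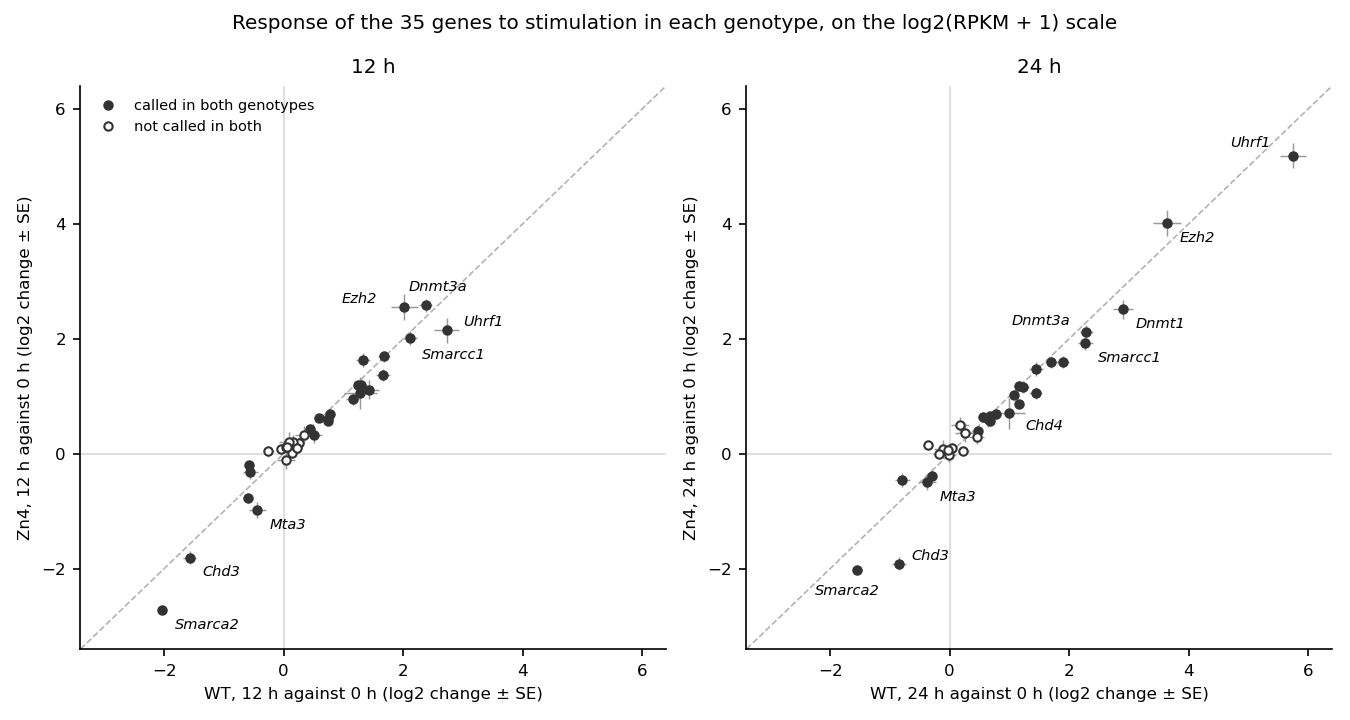
Log2 change (± SE) of each of the 35 genes after 12 h (left) and 24 h (right) of stimulation, in WT cells (horizontal axis) against Zn4 cells (vertical axis); filled points were called in both genotypes, and the dashed line marks equal change. At 24 h Uhrf1 lies farthest from 0 on both axes (5.74 in WT cells, 5.18 in Zn4 cells), and Chd3 lies below the line (a fall of 0.85 in WT cells and of 1.92 in Zn4 cells).

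All 3 DNA methylation genes rose by 12 h in both genotypes. Uhrf1 (chr17:56303321-56323486, GRCm38, + strand), which recognises hemimethylated DNA behind the replication fork and recruits Dnmt1, was among the lowest members at rest and among the highest at 24 h. It stood at 0.963 and 1.38 RPKM in the resting WT libraries and at 1.46 and 1.89 RPKM in the resting Zn4 libraries. At 12 h the values were 11.6 and 15.3 RPKM in WT cells and 9.01 and 13.01 RPKM in Zn4 cells. At 24 h they were 109.8 and 119.9 RPKM in WT cells and 80.4 and 114.6 RPKM in Zn4 cells. No library of a later time overlapped with those of an earlier time in either genotype. Between 0 h and 24 h the ratio of mean levels was 98.0 in WT cells and 58.2 in Zn4 cells, and the log2 changes were 5.74 ± 0.21 (adjusted p = 3.58e-08) and 5.18 ± 0.21 (adjusted p = 5.01e-08), which are smaller than the ratios because the added 1 weighs on levels near 1 RPKM.

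Dnmt1 (chr9:20907209-20959888, − strand), the maintenance methyltransferase, also climbed at both steps, from a higher base. Its level was 15.4 and 20.0 RPKM at rest, 47.7 and 50.6 RPKM at 12 h and 134 and 140.3 RPKM at 24 h in WT cells. Zn4 cells held 15.5 and 19.3 RPKM at rest, 36.9 and 40.4 RPKM at 12 h and 88.7 and 121 RPKM at 24 h. Both steps were called in both genotypes, with log2 changes of 1.43 ± 0.17 and 1.46 ± 0.17 in WT cells and of 1.12 ± 0.17 and 1.40 ± 0.17 in Zn4 cells (adjusted p from 3.54e-05 to 0.000271). Dnmt3a (chr12:3806007-3914443, + strand), a de novo methyltransferase, had reached its level by 12 h. It went from 3.83 and 4.08 RPKM to 25.6 and 23.9 RPKM at 12 h and 22.9 and 23.4 RPKM at 24 h in WT cells. In Zn4 cells it went from 4.81 and 5.75 RPKM to 38.7 and 34.4 RPKM and then to 24.3 and 28.5 RPKM. The first step was 2.38 ± 0.11 in WT cells and 2.58 ± 0.11 in Zn4 cells (adjusted p = 1.01e-07 and 4.67e-08). The fall of 0.46 between 12 h and 24 h in Zn4 cells (adjusted p = 0.011) was not called without Zn4 replicate 1 of 12 h (a fall of 0.37) or without Zn4 replicate 1 of 24 h (a fall of 0.35).

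**Figure D2:**
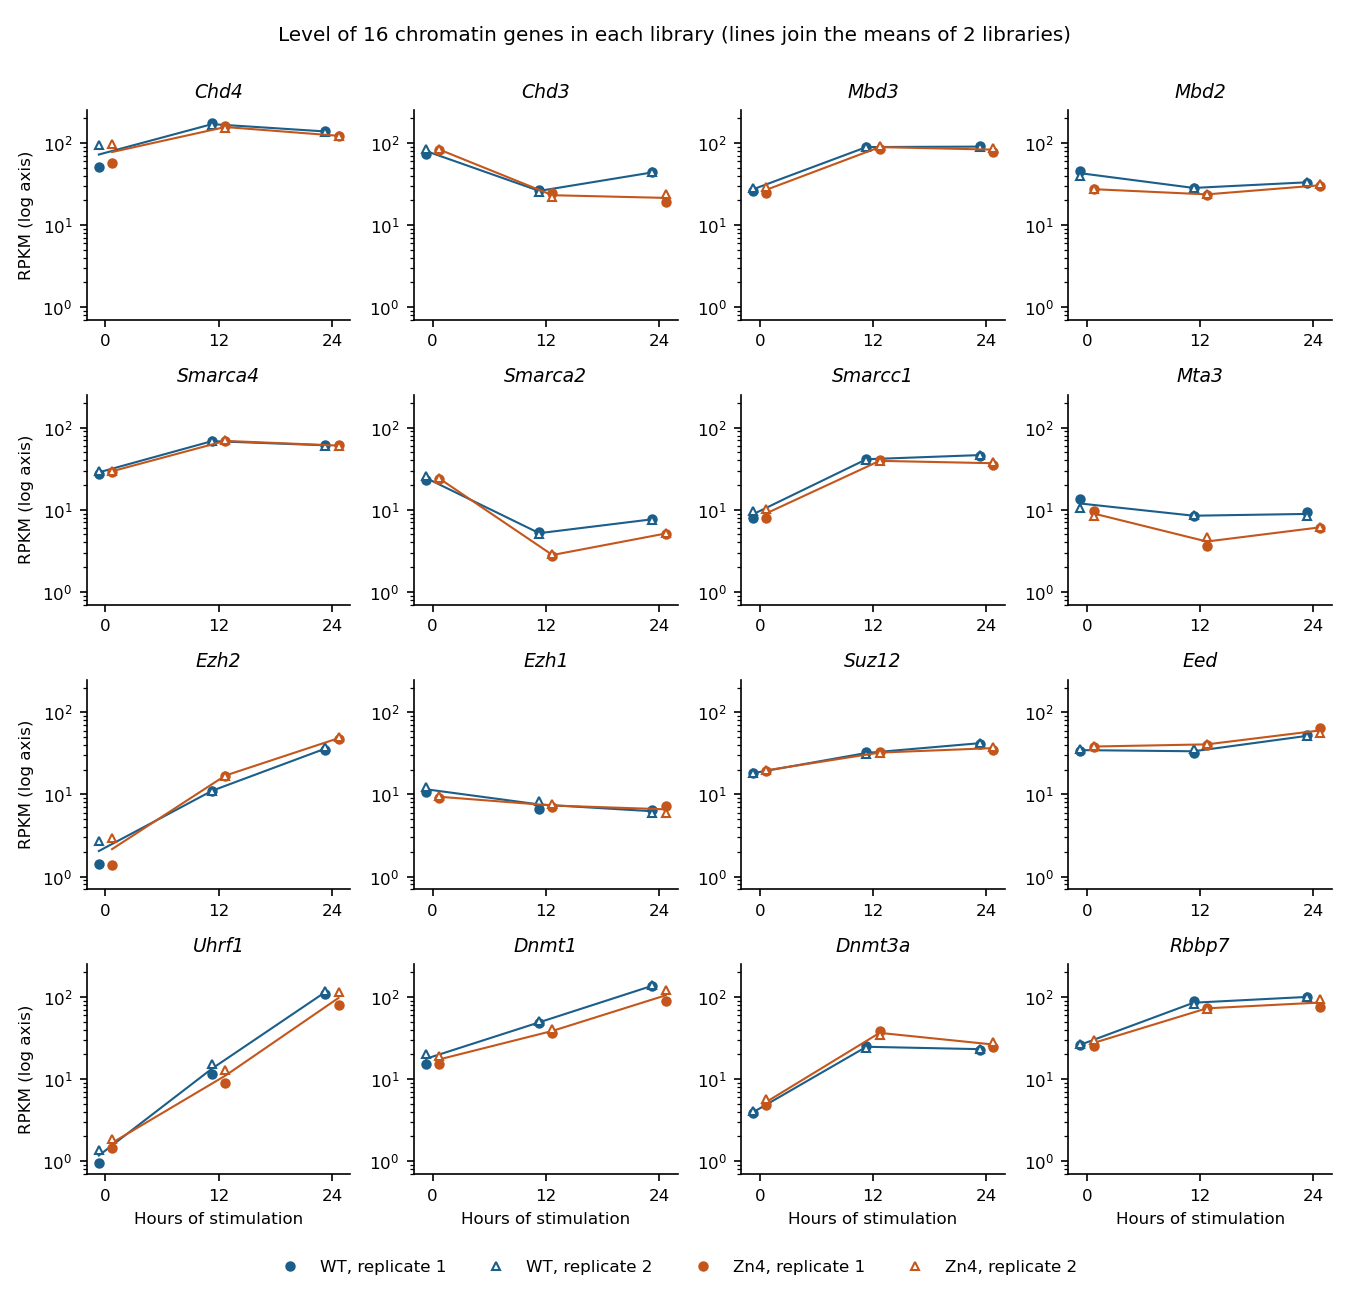
Level in RPKM (log axis) of 16 of the 35 genes in each of the 12 libraries against hours of stimulation; circles are replicate 1, triangles replicate 2, and lines join group means. Uhrf1, Dnmt1 and Ezh2 climb at both steps, Dnmt3a, Mbd3, Smarca4 and Smarcc1 rise by 12 h, and Chd3 and Smarca2 fall by 12 h.

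In PRC2 one catalytic subunit rose and the other fell, and on the deposited scale the core subunits were higher at 24 h than at rest. Ezh2 (chr6:47530139-47595341, − strand), the more active H3K27 methyltransferase, stood at 1.41 and 2.68 RPKM at rest, 11.1 and 11.1 RPKM at 12 h and 34.5 and 37.8 RPKM at 24 h in WT cells. The Zn4 libraries held 1.39 and 2.92 RPKM, 17.0 and 16.9 RPKM, and 47.3 and 49.6 RPKM. The ratio of mean levels between 24 h and rest was 17.7 in WT cells and 22.5 in Zn4 cells, with log2 changes of 3.64 ± 0.23 (adjusted p = 5.66e-07) and 4.01 ± 0.23 (adjusted p = 3.05e-07). Ezh1 (chr11:101191115-101226463, − strand), the paralog that is typical of resting cells, was at 10.7 and 12.4 RPKM in resting WT cells, 6.70 and 8.40 RPKM at 12 h and 6.46 and 6.02 RPKM at 24 h. In Zn4 cells it was at 9.17 and 9.58 RPKM, 6.99 and 7.67 RPKM, and 7.21 and 5.97 RPKM. It fell by 0.79 over 24 h in WT cells (SE 0.13, adjusted p = 0.000337) and by 0.46 in Zn4 cells (SE 0.13, adjusted p = 0.00925), the latter not called without Zn4 replicate 2 of 24 h (a fall of 0.34).

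Suz12 and Eed, the core subunits without which PRC2 is inactive, were present at rest at levels well above Ezh2. Suz12 was at 18.1 to 20.0 RPKM in the 4 resting libraries and 35.2 to 42.8 RPKM in the 4 libraries at 24 h, a log2 change of 1.17 ± 0.07 in WT cells and 0.86 ± 0.07 in Zn4 cells (adjusted p = 5.26e-07 and 3.7e-06). Its late step from 12 h to 24 h was called in WT cells (0.38 ± 0.07, adjusted p = 0.00512; not without WT replicate 2 of 24 h, 0.36) and was 0.18 ± 0.07 in Zn4 cells (adjusted p = 0.0986). Eed was at 31.7 to 35.8 RPKM in WT cells at 0 h and 12 h and at 52.5 and 50.8 RPKM at 24 h. Zn4 cells held 37.7 to 40.9 RPKM at 0 h and 12 h and at 64.0 and 56.4 RPKM at 24 h. The late step of Eed was 0.61 ± 0.09 in WT cells and 0.55 ± 0.09 in Zn4 cells (adjusted p = 0.00108 and 0.00124), and its difference between 24 h and rest in WT cells (0.56) was 0.17 and not called under median-ratio scaling. With the Y-linked level as a covariate the late step in Zn4 cells was 0.405 and not called.

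In NuRD the ATPases moved in opposite directions. Chd4 (chr6:125095981-125130591, + strand), whose product is the main NuRD ATPase of lymphocytes, was at 51.0 and 93.6 RPKM in resting WT cells, 173 and 166 RPKM at 12 h and 139.7 and 136 RPKM at 24 h. The Zn4 libraries held 57.2 and 97.8 RPKM, 162 and 150.5 RPKM, and 122 and 122 RPKM. The rise by 12 h was 1.28 ± 0.28 in WT cells (limma, adjusted p = 0.00218) and 1.05 ± 0.28 in Zn4 cells (adjusted p = 0.00634). The Zn4 call was lost without Zn4 replicate 1 of 0 h (0.67) and with replicate 1 of 12 h left out in both genotypes (1.00). It was also lost with quantile normalization (0.64) and with the Y-linked level as a covariate (0.99). At 24 h its difference from rest, 0.99 in WT cells and 0.70 in Zn4 cells, was not called without replicate 1 of 0 h of that genotype (0.56 and 0.32), and the Zn4 call (adjusted p = 0.0416) was lost on leaving out any of 9 of the 12 libraries (0.32 to 0.70). Under median-ratio scaling and quantile normalization these differences were 0.59 and 0.58 in WT cells and 0.309 and 0.311 in Zn4 cells, none of them called.

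Chd3 (chr11:69343273-69369406, − strand), the Mi-2 alpha paralog of Chd4, was among the most abundant members at rest and fell. It stood at 74.3 and 85.3 RPKM in resting WT cells and at 81.0 and 85.5 RPKM in resting Zn4 cells. At 12 h it stood at 26.7 and 25.5 RPKM in WT cells and at 24.5 and 21.7 RPKM in Zn4 cells. At 24 h it had partly recovered in WT cells, to 43.7 and 43.9 RPKM, and stood at 19.2 and 23.6 RPKM in Zn4 cells. The fall by 12 h was 3.06-fold in WT cells and 3.60-fold in Zn4 cells (log2 changes of −1.57 ± 0.11 and −1.81 ± 0.11, adjusted p = 1.23e-06 and 4.04e-07). The later rise in WT cells was 0.73 ± 0.11 (adjusted p = 0.00153), and the change in Zn4 cells between the same times was −0.11 ± 0.11 (adjusted p = 0.496).

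Of the methyl-CpG-binding family members in NuRD one rose and the other fell by 12 h. Mbd3, which does not bind methylated DNA in mammals, was at 24.5 to 29.3 RPKM in the 4 resting libraries and at 78.1 to 92.9 RPKM in the 8 stimulated libraries, with log2 changes by 12 h of 1.67 ± 0.10 in WT cells and 1.69 ± 0.10 in Zn4 cells (adjusted p = 4.75e-07 and 3.58e-07). Mbd2, which does bind it, was at 45.8 and 39.8 RPKM in resting WT cells, 28.4 and 28.3 RPKM at 12 h and 32.5 and 33.9 RPKM at 24 h. In Zn4 cells it was at 27.4 and 27.3 RPKM, 23.1 and 24.2 RPKM, and 29.8 and 31.3 RPKM. The fall by 12 h in WT cells was 0.58 (SE 0.08, adjusted p = 0.000151). That in Zn4 cells was 0.20 (adjusted p = 0.0465), and leaving out any of 8 of the 12 libraries lost that call (falls of 0.17 to 0.24).

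Among the deacetylases Hdac2 rose early and Hdac1 late. Hdac2 was at 7.50 to 10.7 RPKM at rest and 24.1 to 29.01 RPKM after stimulation, a log2 change by 12 h of 1.33 ± 0.12 in WT cells and 1.64 ± 0.12 in Zn4 cells (adjusted p = 8.06e-06 and 1.64e-06). Hdac1 was at 7.79 to 8.26 RPKM at rest, 8.53 to 9.49 RPKM at 12 h and 12.1 to 13.8 RPKM at 24 h. Its late step was 0.46 ± 0.09 in WT cells (adjusted p = 0.00494; not called without WT replicate 2 of 24 h, 0.39) and 0.47 ± 0.09 in Zn4 cells (adjusted p = 0.00309). With replicate 1 of 12 h left out in both genotypes neither was called (0.43 and 0.42), nor was that of Zn4 cells with the Y-linked level as a covariate (0.396). Its early step in WT cells was 0.22, close to the median over all genes, and it changed sign under both other scalings and lost its call on leaving out any of 10 libraries (0.19 to 0.25).

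The histone-binding subunits Rbbp4 and Rbbp7 and the scaffolds Mta1 and Mta2 rose. Rbbp7 (chrX:162760402-162779092, + strand), the X-linked member, went from 25.5 to 29.6 RPKM at rest to 71.8 to 101 RPKM after stimulation, a change by 12 h of 1.66 ± 0.11 in WT cells and 1.37 ± 0.11 in Zn4 cells (adjusted p = 8.46e-07 and 2.49e-06). Rbbp4, its paralog, rose at both steps, from 15.9 to 17.2 RPKM at rest to 25.1 to 26.4 RPKM at 12 h and 35.4 to 40.5 RPKM at 24 h. Mta1 and Mta2, the scaffolds that hold the deacetylases, rose by 12 h by 1.15 ± 0.10 and 0.74 ± 0.08 in WT cells and by 0.95 ± 0.10 and 0.61 ± 0.08 in Zn4 cells (adjusted p from 6.51e-06 to 0.00011). Gatad2a, which links the methyl-binding and remodelling parts, rose by 0.74 ± 0.07 in WT cells and 0.57 ± 0.07 in Zn4 cells, whereas Gatad2b stayed between 27.8 and 42.3 RPKM and passed the test at no step on the deposited scale.

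Mta3 was the NuRD scaffold that fell. It was at 13.5 and 10.4 RPKM in resting WT cells, 8.34 and 8.58 RPKM at 12 h and 9.30 and 8.49 RPKM at 24 h. Zn4 cells held 9.70 and 8.31 RPKM, 3.57 and 4.64 RPKM, and 6.00 and 6.22 RPKM. The fall by 12 h was 0.98 in Zn4 cells (SE 0.14, adjusted p = 0.00016) and 0.44 in WT cells (SE 0.14, adjusted p = 0.0197). The WT call was lost without WT replicate 1 of 0 h (a fall of 0.27) and without either WT library of 12 h (falls of 0.42 and 0.46).

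In the SWI/SNF complexes one ATPase rose and the other fell. Smarca2 (chr19:26605050-26778322, + strand) had the largest fall of the 35 genes in both genotypes at 12 h and at 24 h. It stood at 23.1 and 25.6 RPKM in resting WT cells and at 23.6 and 24.5 RPKM in resting Zn4 cells. At 12 h it stood at 5.33 and 5.04 RPKM in WT cells and at 2.72 and 2.90 RPKM in Zn4 cells. At 24 h it stood at 7.78 and 7.54 RPKM in WT cells and at 5.01 and 5.26 RPKM in Zn4 cells. The level at 12 h was 4.70-fold lower than at rest in WT cells and 8.57-fold lower in Zn4 cells (log2 changes of −2.04 ± 0.09 and −2.72 ± 0.09, adjusted p = 6.66e-08 and 1.54e-08), and the partial return by 24 h was called in both (0.49 ± 0.09 and 0.69 ± 0.09, adjusted p = 0.00358 and 0.000357).

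Smarca4 (chr9:21616169-21704230, + strand), the alternative ATPase, rose from 27.5 to 30.04 RPKM in the 4 resting libraries to 67.9 to 69.8 RPKM in the 4 libraries at 12 h and stood at 59.8 to 61.7 RPKM at 24 h. The rise by 12 h was 1.24 ± 0.07 in WT cells and 1.20 ± 0.07 in Zn4 cells (adjusted p = 2.65e-07 and 2.45e-07). Smarcc1 (BAF155), a scaffold of the core, went from 7.88 to 10.1 RPKM at rest to 35.1 to 46.9 RPKM after stimulation, with changes by 12 h of 2.11 ± 0.12 in WT cells and 2.02 ± 0.12 in Zn4 cells (adjusted p = 3.07e-07 and 3.26e-07). Its paralog Smarcc2 (BAF170) was at 17.4 to 23.9 RPKM at rest and 26.7 to 34.1 RPKM after stimulation, and its calls did not hold under other scalings. Smarcb1 (SNF5), the tumour suppressor subunit of the core, rose by 1.30 ± 0.10 in WT cells and 1.20 ± 0.10 in Zn4 cells by 12 h (adjusted p = 2.38e-06 and 3.4e-06), from 5.31 to 6.42 RPKM to 14.5 to 15.8 RPKM.

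Among the subunits that tell SWI/SNF assemblies apart, Arid1b fell by 0.59 in WT cells and by 0.77 in Zn4 cells by 12 h (SE 0.09 each, adjusted p = 0.000197 and 2.76e-05), from 10.7 to 12.5 RPKM at rest to 6.13 to 8.16 RPKM. Its paralog Arid1a was at 28.1 to 36.4 RPKM throughout, and its WT change at 12 h of 0.25 was −0.045 under median-ratio scaling and lost its call without WT replicate 1 of 0 h or either WT library of 12 h (0.17 to 0.28). Arid2 (8.98 to 11.6 RPKM) and Pbrm1 (9.57 to 15.2 RPKM), which mark the PBAF form, and Smarcd1 (22.2 to 28.3 RPKM) and Smarcd2 (32.6 to 42.0 RPKM) passed the test at no step on the deposited scale. Smarce1 was at 4.15 to 5.64 RPKM, and its WT fall of 0.25 at 12 h lost its call without WT replicate 2 of 0 h or any of the WT libraries of 12 h and 24 h (−0.31 to −0.20).

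The SIN3 scaffolds and Ctbp1 moved within a narrow range. Sin3a was at 17.7 to 23.8 RPKM at rest and 21.7 to 28.6 RPKM after stimulation, and Sin3b at 18.9 to 25.5 RPKM and 25.2 to 33.5 RPKM. Each was called higher at 24 h in 1 genotype, Sin3a in WT cells (0.46 ± 0.13, adjusted p = 0.00895) and Sin3b in Zn4 cells (0.50 ± 0.14, adjusted p = 0.0102), and neither call held under other scalings. Without WT replicate 1 of 0 h the Sin3a change was 0.26, and without Zn4 replicate 1 of 0 h or of 24 h the Sin3b change was 0.29 or 0.41, none of them called. Ctbp1, a dehydrogenase-like corepressor, was abundant at 63.7 to 77.0 RPKM at rest and 82.5 to 104.9 RPKM after stimulation, and its rises of 0.39 to 0.47 were not called under either other scaling.

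Between 12 h and 24 h fewer members passed the test. In WT cells 10 members were called, each of them higher at 24 h, where 17% of all tested genes were called higher and 6.94% lower. In Zn4 cells 10 rose and 1 fell, where 22.6% of all tested genes were called higher and 11% lower. Uhrf1, Dnmt1, Ezh2, Eed, Rbbp4, Hdac1, Smarca2 and Arid1b rose in both genotypes, Chd3 and Suz12 in WT cells and Mbd2 and Mta3 in Zn4 cells. Uhrf1 had the widest late step, with ratios of mean levels of 8.55 in WT cells and 8.86 in Zn4 cells (log2 changes of 3.01 ± 0.21 and 3.03 ± 0.21, adjusted p = 1.41e-05 and 1.23e-05). The median change over the members was 0.11 in WT cells and 0.09 in Zn4 cells, against 0.04 and 0.05 over all tested genes. With median-ratio scaling the calls over all genes moved from 2169 higher and 883 lower to 1707 and 1449 in WT cells and from 2875 and 1398 to 2283 and 2060 in Zn4 cells, and those over the members to 9 and 2 in both. The Arid1b call in WT cells was lost without any 1 of the 12 h libraries or the WT 24 h libraries (0.24 to 0.34), the Hdac1 and Suz12 calls in WT cells without WT replicate 2 of 24 h (0.39 and 0.36), and, in Zn4 cells, that of Mbd2 without Zn4 replicate 1 of 12 h (0.32) and that of Mta3 without Zn4 replicate 1 of 12 h or either Zn4 library of 24 h (0.33 to 0.51). In Zn4 cells 3 members were called with the Y-linked level as a covariate, in place of 11. Over all 12726 genes 847 were then called in place of 4273, so this loss is not particular to the members. The changes that lost their call under the covariate included those of Ezh2 (1.45), Rbbp4 (0.55), Eed (0.405), Hdac1 (0.396) and Arid1b (0.298). With replicate 1 of 12 h left out in both genotypes Arid1b lost its call in WT cells (0.24) and in Zn4 cells (0.39). Hdac1 did so in WT cells (0.43) and in Zn4 cells (0.42), and Mbd2 (0.32), Mta3 (0.33) and Dnmt3a (−0.37) in Zn4 cells.

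The 7 genes of a reference list for S phase (Mcm2 to Mcm7 and Pcna, the replicative helicase and the sliding clamp) were all higher at 12 h and at 24 h than at rest in both genotypes. Their median change over 24 h was 2.58 in WT cells and 2.55 in Zn4 cells, and 6 of 7 also rose between 12 h and 24 h. Mcm5, for example, went from 16.8 and 16.01 RPKM at rest to 108 and 115 RPKM at 12 h and 246 and 252 RPKM at 24 h in WT cells. The part of S phase entry in the rise of Uhrf1, Dnmt1 and Ezh2 was not tested.

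Within a library, the share of a paralog in the summed RPKM of its pair is not changed by a factor that scales the whole library, though quantile normalization can change it. Shares, computed on the deposited values, are given as a description, with no test. Their size depends on the gene lengths behind the RPKM values, whereas the direction of a change between libraries does not. Chd4 made up 40.71% to 53.37% of Chd3 plus Chd4 in the 4 resting libraries and 86.64% to 87.38% in the 4 libraries at 12 h. At 24 h it made up 75.66% to 76.15% in WT cells and 83.81% to 86.41% in Zn4 cells. Smarca4 made up 53.59% to 55.03% of Smarca2 plus Smarca4 at rest, 92.85% to 96.16% at 12 h and 88.8% to 92.42% at 24 h. Ezh2 made up 11.65% to 23.4% of Ezh1 plus Ezh2 at rest, 56.94% to 70.88% at 12 h and 84.25% to 89.27% at 24 h, so that Ezh1 led in all 4 resting libraries and Ezh2 in all 8 stimulated ones.

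Mbd3 made up 36.26% to 51.76% of Mbd2 plus Mbd3 at rest and 72.26% to 73.98% at 24 h, with 36.26% and 41.74% in the resting WT libraries, and Smarcc1 made up 29% to 31.13% of its pair at rest and 50.73% to 58.91% at 24 h. Hdac2 went from 47.94% to 57.56% at rest to 66.55% to 69.1% at 24 h, and Rbbp7 from 60.32% to 64.71% to 68.29% to 72.12%. Gatad2a went from 37.58% to 46.45% at rest to 50.17% to 56.22% at 24 h. Mta3, a minor scaffold, went from 8.51% to 14.35% of the Mta genes to 3.58% to 5.27%, and Arid1b from 25.06% to 30.17% of its pair to 20.3% to 24.15%. In the pairs Smarcd1 with Smarcd2 and Sin3a with Sin3b the shares at 24 h overlapped with those at rest.

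**Figure D3:**
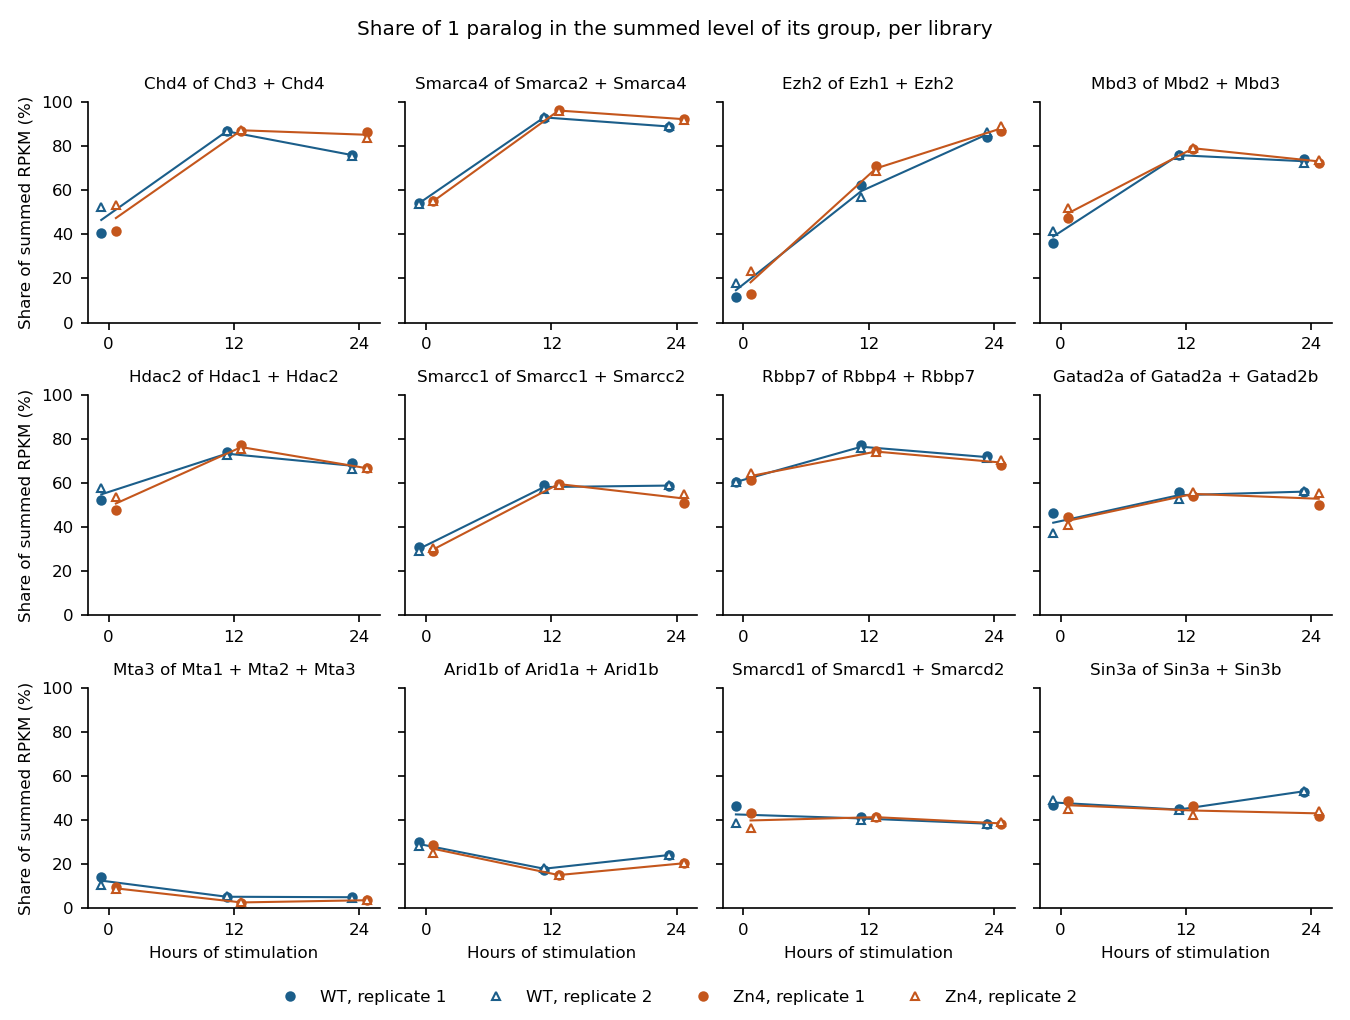
Share of a paralog, in percent of the summed RPKM of its group, in each of the 12 libraries against hours of stimulation for 12 groups of paralogs; circles are replicate 1, triangles replicate 2, and lines join group means. Chd4, Smarca4, Ezh2 and Mbd3 take a larger share in all stimulated libraries than in any resting library, and at 24 h the share of Chd4 is lower in WT cells (75.66% to 76.15%) than in Zn4 cells (83.81% to 86.41%).

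The question of the genotype comparisons is whether cells with mutant Ikaros hold other levels of these partners. A member without a call may still differ, and at rest the count of calls was near the shares over all genes given below. The 1 member of 35 called at rest was Mbd2. It was at 27.4 and 27.3 RPKM in Zn4 cells and at 45.8 and 39.8 RPKM in WT cells, so the groups did not overlap and the WT mean was 1.56-fold higher. The difference was −0.62 ± 0.08 (limma, adjusted p = 0.00187), where 1.96% of all tested genes were called lower and 3.76% higher. It was called in every alternative except a fit to the 4 libraries of the comparison alone, where its size was the same (−0.62). The NuRD ATPases and deacetylases showed no call at rest, with differences of 0.06 ± 0.11 for Chd3, 0.11 ± 0.28 for Chd4, 0.06 ± 0.09 for Hdac1 and −0.16 ± 0.12 for Hdac2. The resting replicates of Chd4 lay far apart in both genotypes, at 51.0 and 93.6 RPKM in WT cells and 57.2 and 97.8 RPKM in Zn4 cells. Over all genes, deviations of same-numbered resting samples correlated at 0.61 between genotypes, and fits with a replicate block are given in the last section.

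At 12 h, 3 members differed between genotypes, 1 higher and 2 lower in Zn4 cells, where 4.85% of all tested genes were called higher and 8.28% lower. Smarca2 was at 2.72 and 2.90 RPKM in Zn4 cells and at 5.33 and 5.04 RPKM in WT cells, a difference of −0.70 ± 0.09 (adjusted p = 0.000919). Mta3 was at 3.57 and 4.64 RPKM against 8.34 and 8.58 RPKM, a difference of −0.90 ± 0.14 (adjusted p = 0.00317). Dnmt3a was the member that was higher in Zn4 cells, at 38.7 and 34.4 RPKM against 25.6 and 23.9 RPKM (0.54 ± 0.11, adjusted p = 0.0109). None of these groups overlapped. How many of all tested genes show no overlap was not counted in any comparison, so this adds no support to a call. The Dnmt3a call was lost without WT replicate 2 (0.50) or Zn4 replicate 1 (0.46) of that time.

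Ezh2 was at 17.0 and 16.9 RPKM in Zn4 cells and at 11.1 and 11.1 RPKM in WT cells at 12 h. Its difference of 0.57 ± 0.23 did not pass the test (adjusted p = 0.153). The replicates of Ezh2 differed most at rest, and the model shares 1 estimate of the spread over all groups. Both Zn4 libraries of 12 h and 1 of the 2 WT libraries held Y-linked transcripts, whose part in these differences can only partly be told apart from genotype. With the Y-linked level as a covariate Smarca2 and Mta3 were still called, and Dnmt3a was not (0.49). With WT replicate 1 and Zn4 replicate 1 left out, the differences of Smarca2, Mta3 and Dnmt3a were −0.63, −0.77 and 0.51 and none was called, each genotype then being a single library assumed to vary like the other groups.

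At 24 h, 4 members were called, all lower in Zn4 cells, where 9.96% of all tested genes were called lower and 9.4% higher. Chd3 differed most, with 19.2 and 23.6 RPKM in Zn4 cells against 43.7 and 43.9 RPKM in WT cells. The groups did not overlap, the WT mean was 2.05-fold higher, and the difference was −1.01 ± 0.11 (adjusted p = 0.000354), called in every alternative that was run. Chd4 was at 122 and 122 RPKM in Zn4 cells against 139.7 and 136 RPKM in WT cells, a difference of −0.17 ± 0.28 that did not pass the test (adjusted p = 0.714). Smarca2 was at 5.01 and 5.26 RPKM against 7.78 and 7.54 RPKM (−0.50 ± 0.09, adjusted p = 0.00402).

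The other calls of this time were weak. Mta3 was at 6.00 and 6.22 RPKM in Zn4 cells against 9.30 and 8.49 RPKM in WT cells (−0.48 ± 0.14, adjusted p = 0.0441), and its call was lost on leaving out either library of WT 12 h, WT 24 h or Zn4 24 h (−0.54 to −0.42). Ctbp1 was at 82.5 and 90.9 RPKM against 104.9 and 101.8 RPKM (−0.25 ± 0.08, adjusted p = 0.0496), and its call was lost on leaving out any of 9 of the 12 libraries (−0.27 to −0.18). Dnmt1, at 88.7 and 121 RPKM against 134 and 140.3 RPKM, did not pass the test (−0.40 ± 0.17, adjusted p = 0.125). Of the S phase genes, Mcm7 and Mcm6 were lower in Zn4 cells at 24 h, by −0.48 and −0.40. The CD8 T cell markers summed to 589 to 697 RPKM in Zn4 cells and 916 to 947 RPKM in WT cells at this time, and the part of that difference in these results was not tested. Without the 12 h libraries 2 members were called at this time, Chd3 and Smarca2.

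**Figure D4:**
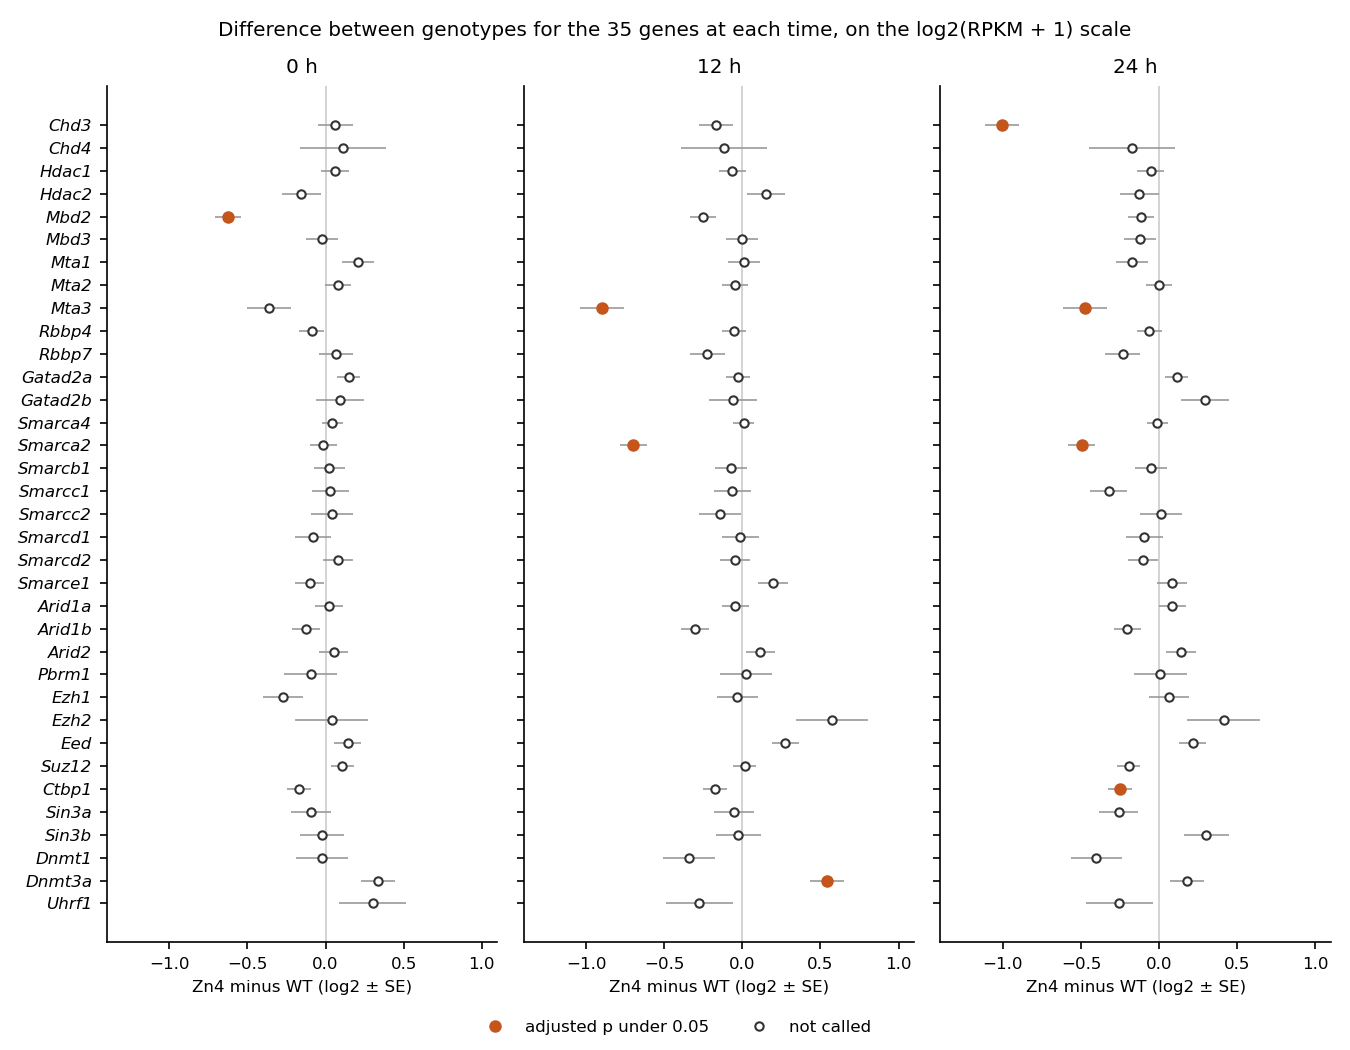
Difference between Zn4 and WT cells (log2 ± SE) for the 35 genes at 0 h, 12 h and 24 h; orange points had an adjusted p under 0.05. Mbd2 stands apart at 0 h (−0.62), Smarca2 and Mta3 (−0.70 and −0.90) and Dnmt3a (0.54) at 12 h, and Chd3 (−1.01) at 24 h.

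The test of whether the response to stimulation itself differed between genotypes called few members. At 12 h it called 1 of 35, against 5.12% of all tested genes. Smarca2 fell further in Zn4 cells, with a difference between responses of −0.68 ± 0.12 (adjusted p = 0.0149), a call lost without either WT library of 12 h, Zn4 replicate 2 of 0 h or Zn4 replicate 1 of 12 h (−0.72 to −0.65). With replicate 1 of 12 h left out in both genotypes it was −0.62 and not called. At 24 h it called 3 of 35, against 8.24% of all tested genes. Chd3 responded differently by −1.07 ± 0.16 (adjusted p = 0.00488), called in every alternative that was run. Mbd2 responded differently by 0.51 ± 0.12 (adjusted p = 0.0285), having fallen from a higher resting level in WT cells, and leaving out any of 9 libraries lost the call (0.41 to 0.54). Smarca2 responded differently by −0.48 ± 0.12 (adjusted p = 0.0439), and leaving out any of 10 libraries lost the call (−0.51 to −0.41).

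Other chromatin genes, from lists of 115 genes of which 104 were tested, moved in both directions. The lists hold further subunits of the complexes above and genes of other ones (CoREST, PRC1, NCoR, ISWI, CHD and INO80 remodellers, DNA demethylation). They were counted on the deposited scale alone. In WT cells 33 rose and 39 fell by 12 h, and 37 were higher and 38 lower at 24 h than at rest. Over all tested genes 43.1% were called higher and 27% lower at 12 h, and 48.3% and 25.6% at 24 h. The median change over these lists was −0.12 at 12 h and −0.07 at 24 h, against 0.20 and 0.31 over all tested genes. In Zn4 cells 29 rose and 42 fell by 12 h, and 33 were higher and 37 lower at 24 h. There 43.5% of all tested genes were called higher and 29.6% lower at 12 h, and 48.7% and 26% at 24 h. The median change over the lists was −0.11 and 0.04, against 0.19 and 0.31 over all tested genes. Among 12 other genes of DNA methylation and demethylation, Hells, a remodeller needed for methylation of repeats, followed the course of Uhrf1 with 1.34 and 1.37 RPKM at rest, 7.49 and 8.27 RPKM at 12 h and 31.9 and 34.3 RPKM at 24 h in WT cells (3.86 ± 0.12 over 24 h, adjusted p = 2.21e-08). Tet2, which oxidises methylcytosine, fell by 1.17 over the same time (SE 0.14, adjusted p = 3.27e-05).

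Of the 27 other Polycomb genes tested, 9 were higher and 10 lower at 24 h than at rest in WT cells. Over all tested genes 48.3% were called higher and 25.6% lower. Phf1, an accessory PRC2 subunit, fell from 46.5 and 42.2 RPKM to 4.87 and 5.07 RPKM over 24 h in WT cells (−2.92 ± 0.17, adjusted p = 3.31e-07), while its paralog Phf19 rose from 0.535 and 0.446 RPKM to 6.99 and 8.43 RPKM (2.54 ± 0.15, adjusted p = 3.19e-07), with its rise between 12 h and 24 h. Among 22 other remodellers Chd2 fell from 119 and 173 RPKM at rest to 7.21 and 6.62 RPKM at 12 h (−4.19 ± 0.16, adjusted p = 4.2e-08), and the helicases Ruvbl1 and Ruvbl2 of the INO80 complex rose by 2.80 ± 0.10 and 2.92 ± 0.21. In the SIN3 list of 12 genes Arid4a and Arid4b fell by 1.61 each by 12 h, and in the NCoR list of 6 genes Hdac3 rose by 1.06 ± 0.09. Of 13 other NuRD and CoREST genes Cdk2ap1 rose by 1.74 ± 0.15, and of 13 other SWI/SNF genes Actl6a rose by 1.37 ± 0.10 and Ss18 fell by 1.30 by 12 h.

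Between genotypes the wider lists of 104 tested genes held 1 call at rest (lower in Zn4 cells), 9 at 12 h (all lower) and 17 at 24 h (8 higher and 9 lower). Over all tested genes 3.76% were called higher and 1.96% lower at rest, 4.85% and 8.28% at 12 h, and 9.4% and 9.96% at 24 h, so these counts were near or below the background. Jarid2, which guides PRC2 to its targets, was lower in Zn4 cells at every time, at 13.2 and 11.7 RPKM against 18.5 and 17.4 RPKM at rest (−0.50 ± 0.11, adjusted p = 0.0286) and at 4.61 and 5.88 RPKM against 9.47 and 9.89 RPKM at 24 h (−0.78 ± 0.11, adjusted p = 0.00127). Bcl11b, a T lineage factor that joins SWI/SNF, was at 7.28 and 8.43 RPKM in Zn4 cells against 13.2 and 15.6 RPKM in WT cells at 12 h, and its response differed by −1.17 ± 0.26 at 12 h and −1.18 ± 0.26 at 24 h (adjusted p = 0.0336 and 0.0248). Tet2 was higher in Zn4 cells at 24 h, at 9.32 and 7.77 RPKM against 4.82 and 4.89 RPKM (0.70 ± 0.14, adjusted p = 0.00668). Pcgf5, a subunit of a variant PRC1 complex, was at 75.3 and 39.4 RPKM against 25.04 and 24.3 RPKM (1.11 ± 0.29, adjusted p = 0.0243), with the Zn4 replicates far apart. Unlike those of the members, these calls of single genes were not followed through the alternatives. Those at 12 h also rest on libraries that differed in sex-linked RNA.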

How the data were processed

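RNA of naive CD8 T cells was sequenced in 12 libraries, single-end with a stranded mRNA kit, per the labels' protocols. The authors used TopHat2 2.0.12 and HTSeq 0.6.1 with the mm10 build, per the submitters' processing notes, and deposited RPKM values for 12892 lines (12885 symbols, 7 of them on 2 lines). How reads of near-identical genes were counted is not given in the sources used here. Whole reads were recovered from the deposited RPKM values for 100.0% of symbols (tolerance 0.02 reads). How the 35 members and the wider lists were chosen: with earlier results of these data known.

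The 12726 genes that reached 1 RPKM in 2 or more libraries were fitted on log2(RPKM + 1) with limma 3.58.1 in R 4.3.3, with empirical Bayes moderation along a trend of variance on level, with 1 mean per group over all 12 libraries and 6 residual degrees of freedom. P-values were adjusted by Benjamini-Hochberg within each of 11 comparisons and called under 0.05. A fold on this scale understates changes of low genes. All members could be named, and from each wider list the called genes with the 4 largest changes in a comparison. Tested on simulated data for Zn4 against WT cells at 24 h (12572 genes), the fit recovered 77 of 100 genes changed 2-fold and 99 of 100 changed 4-fold, with 10 false calls. Beyond the sampling of reads, the simulation gave every gene the same independent noise (SD of 0.2 in log2). It held no deviation shared between libraries, so these rates may not carry over to the real samples. The 23 alternatives changed the pseudocount, filter, scaling, samples, block or test (voom on the recovered reads), or added the Y-linked level as a covariate. Those leaving out 2 or all of the 12 h libraries together, and the block at each time, were chosen after seeing the data. Gene positions are from GENCODE M21 (GRCm38), and promoters from RefSeq.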

Additional observations from a re-analysis of the deposited data

Results flagged for a closer look

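The response to stimulation differed between genotypes for 3 members, by the test of the difference itself in the limma model (adjusted p under 0.05). It called 1 of 35 members at 12 h and 3 of 35 at 24 h, against 5.12% and 8.24% of all tested genes. These counts therefore show nothing particular to the members. For Smarca2 the change by 12 h was lower in Zn4 cells by −0.68 (log2), with levels of 2.72 and 2.90 RPKM in Zn4 cells and 5.33 and 5.04 RPKM in WT cells at 12 h after near-equal resting levels. By 24 h the difference in its response was −0.48. The 12 h call was lost on leaving out any of 4 libraries (−0.72 to −0.65), and the 24 h call on leaving out any of 10 (−0.51 to −0.41).

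For Chd3 the change by 24 h was lower in Zn4 cells by −1.07, with 19.2 and 23.6 RPKM in Zn4 cells and 43.7 and 43.9 RPKM in WT cells, and this call was made under every alternative that was run. For Mbd2 the change by 24 h was higher in Zn4 cells by 0.51, the resting level being 27.4 and 27.3 RPKM in Zn4 cells and 45.8 and 39.8 RPKM in WT cells. That call was lost on leaving out any of 9 libraries (0.41 to 0.54).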

How the results depend on the processing

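Of 166 changes of members followed through the alternatives, 163 kept direction and call with a pseudocount of 0.1, 166 without the filter, 160 with voom, 146 with median-ratio scaling and 143 with quantile normalization. Under median-ratio scaling and quantile normalization the WT changes at 12 h of Arid1a (−0.045 and −0.1) and Hdac1 (−0.056 and −0.024) and the Zn4 change at 24 h of Ctbp1 (−0.002 and −0.01) reversed. Under quantile normalization those of Sin3b at 12 h (−0.003) and Pbrm1 at 24 h (−0.013) in Zn4 cells, neither called before, also did. Fitted to only the libraries compared, 18 members were called between 12 h and 24 h in WT cells, 0 between genotypes at 0 h, 6 at 12 h, and 1 in the response at 24 h. In the same order, these fits called 5213 of 11566, 120 of 11312, 2100 of 11241 and 552 of 12582 genes. With the Y-linked level as covariate, 847 of all 12726 genes were called in Zn4 cells between 12 h and 24 h and 2221 between genotypes at 24 h. Of the members, 3 and 2 were called in these comparisons. With replicate 1 of 12 h left out in both genotypes these counts were 6 and 2, and 0 between genotypes at 12 h, 0 in the response at 12 h and 1 at 24 h. Without all 12 h libraries, 2 members were called between genotypes at 24 h and 1 in the response, against 1815 and 552 of all 12582 genes. The cause was not tested. Leaving out each library gave, between times, 23 to 29, 7 to 12 and 25 to 29 calls in WT cells (12 h against 0 h, 24 h against 12 h, 24 h against 0 h) and 20 to 25, 8 to 13 and 23 to 28 in Zn4 cells. Between genotypes it gave 1 at 0 h, 2 to 5 at 12 h and 2 to 5 at 24 h, and in the response 0 to 2 and 1 to 3. The labels do not say that replicate numbers pair samples. Deviations of same-numbered samples correlated at 0.61 between genotypes at 0 h, 0.192 at 12 h and 0.0429 at 24 h. With a replicate block shared by all times the counts, in the same order, were 28, 10, 28, 23, 11, 26, 1, 3, 3, 1 and 3. With a block at each time they were 2, 8 and 10 between genotypes at 0 h, 12 h and 24 h and 2 and 7 in the response. Ezh2 (0.57 and 0.41) and Dnmt1 (−0.34 and −0.40) were among those gained between genotypes at 12 h and 24 h. Calls over all 12726 genes rose too, to 1343, 2644 and 3794 between genotypes and to 1319 and 2029 in the response, so these gains are not particular to the members. The number of libraries, 2 a group, limits the precision, and members had at least 105 reads in a library.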
